A study of Mus musculus with 9 samples.

Results

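Beside a table of annotated genes, the mouse liver data held a second table of 10199 loci that carry assembler identifiers (MSTRG) in place of gene names. The 3878 loci described here are those on chromosomes 1 to 19 averaging 1 FPKM or more (9 libraries) whose span overlapped, on the same strand, the span of at least 1 gene of the gene table. FPKM is a fragment number scaled by transcript length and by library size. A further 722 autosomal loci at that level lay only antisense to a gene and 993 lay outside every gene model, while 570 same-strand loci fell under 1 FPKM. The gene with which a locus shared the most bases is called its host, and 3816 distinct genes served as host. Where genes tied, the one with the lowest start coordinate was taken. Just inside the threshold stood the loci in Ankhd1 at 1.0012 FPKM, Cd300e at 1.0082 FPKM and Zbtb40 at 1.0084 FPKM. Just outside it stood those in Rfc4 at 0.99993 FPKM, Zbtb7c at 0.99932 FPKM and 1700030K09Rik at 0.99898 FPKM.

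The samples were livers of C57BL/6 mice at 8 weeks after birth, in 3 groups of 3 libraries. The groups were IPO, which the series title gives as ischaemic postconditioning, IR (ischaemia and reperfusion), and sham. All 9 livers were flash frozen, extracted with Trizol and made into libraries with a strand-specific KAPA kit from total RNA, and the strand of each locus is therefore part of the record. How long ischaemia lasted and when livers were taken are not in the labels. The labels also do not say that the 3 replicates were separate animals, so that every p below measures the spread between libraries, which may be technical.

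A transcript assembler builds transcripts from aligned reads and gives a locus an identifier of its own, whether or not a known gene lies there. A locus in sense with a gene can be a second model of that gene, a piece of it, the gene with an added upstream or downstream exon, a run of transcription across neighbouring genes, or a separate transcript inside an intron. In liver, ischaemia followed by reperfusion is known for immediate early transcription factors of the Fos, Jun and Egr families, and acute phase proteins such as serum amyloid A are made by hepatocytes under cytokine signals carried by NF-kB and STAT factors.

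Sequences are given for the loci on which the results below turn. First are the 250 bases before the RefSeq start (GRCm38.p6) of Jun and Cxcl1, because the 5′ ends of the loci MSTRG.16011 and MSTRG.17823 lay 5 bases inside and 2 bases outside those starts and the loci moved in opposite directions in IR livers. The Jun window (chr4:95052223-95052472, minus strand) has in capitals its match to TGACATCA, a variant of the cyclic AMP response element, whose first base lies at -45. The Cxcl1 window (chr5:90890995-90891244, plus strand) has in capitals a pair of overlapping NF-kB motif matches that begin at -71 and -70.
Jun upstream of its start: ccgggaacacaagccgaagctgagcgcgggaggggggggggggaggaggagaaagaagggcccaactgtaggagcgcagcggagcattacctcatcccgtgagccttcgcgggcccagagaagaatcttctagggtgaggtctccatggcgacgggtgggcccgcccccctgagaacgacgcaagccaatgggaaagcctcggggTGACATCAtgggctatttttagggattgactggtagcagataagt
Cxcl1 upstream of its start: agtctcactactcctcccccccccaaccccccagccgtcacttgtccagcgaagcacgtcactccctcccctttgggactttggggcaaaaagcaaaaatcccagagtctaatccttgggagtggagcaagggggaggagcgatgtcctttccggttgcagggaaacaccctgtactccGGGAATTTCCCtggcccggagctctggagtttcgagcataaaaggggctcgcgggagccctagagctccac
Searched on both strands, TGACATCA stood in 2.93% of 32851 RefSeq promoter windows of 250 bases, TGACGTCA in 1.55%, the AP-1 motif TGANTCA in 6.75% and the NF-kB motif in 3.9%; overlapping matches were allowed. The windows of Fosb and Saa1, also searched and not shown, held none of the first 3 motifs. Fosb held 1 NF-kB match at -188 and Saa1 held none. The Jun window held no match to TGACGTCA, the AP-1 motif or the NF-kB motif, and the Cxcl1 window held none of the first 3 motifs. A match is only a match of letters.

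Another pair of comparisons shows similar copies whose reads the authors' counting could have split. The host was chosen by the bases shared between spans, so this likeness played no part in that choice. Capitals mark the bases that differ within a pair, and the sequences are GENCODE M21 transcripts on GRCm38. Gstp-ps, a pseudogene, makes up 89.1% of the locus MSTRG.1757 inside an intron of Traf5, and is shown with the gene it resembles, Gstp1 (glutathione S-transferase pi). The Gstp-ps stretch is chr1:192074271-192074450 and the Gstp1 stretch spans chr19:4037154-4037619, both on the minus strand.
Gstp-ps: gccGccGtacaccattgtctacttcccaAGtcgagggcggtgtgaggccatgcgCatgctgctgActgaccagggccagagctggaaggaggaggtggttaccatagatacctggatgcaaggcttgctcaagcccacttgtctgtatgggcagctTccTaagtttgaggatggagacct
Gstp1: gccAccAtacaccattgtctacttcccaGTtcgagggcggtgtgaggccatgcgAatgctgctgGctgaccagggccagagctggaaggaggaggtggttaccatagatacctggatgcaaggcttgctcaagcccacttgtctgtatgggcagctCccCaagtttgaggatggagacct
These 180 bases differ at 8 positions, and over all aligned bases 616 of 631 (97.6%) were identical. Serpina3m and Serpina3k, neighbouring serine protease inhibitor genes that the locus MSTRG.5631 joins, are shown from chr12:104389099-104389278 and chr12:104340537-104340716, both on the plus strand.
Serpina3m: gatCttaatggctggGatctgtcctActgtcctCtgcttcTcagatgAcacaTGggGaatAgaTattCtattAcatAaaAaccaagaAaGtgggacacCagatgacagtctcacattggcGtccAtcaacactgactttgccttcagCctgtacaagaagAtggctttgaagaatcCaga
Serpina3k: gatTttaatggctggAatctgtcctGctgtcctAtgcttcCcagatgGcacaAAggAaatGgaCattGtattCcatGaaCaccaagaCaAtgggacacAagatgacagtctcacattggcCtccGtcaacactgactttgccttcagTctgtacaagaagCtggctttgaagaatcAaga
This stretch of the coding sequence differs at 23 positions, and 1148 of 1251 aligned coding bases (91.8%) were identical.

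Most of the loci were not unannotated in the sense of lying away from known transcripts. Of the 3878, 339 (8.74%) had exactly the start and end of their host, 1644 (42.4%) shared at least 1 end with it, and 1342 (34.6%) had both ends within 50 bases of those of a GENCODE M21 transcript. The span of 2302 loci (59.4%) and that of an M21 gene covered each other by at least 90%. The data therefore go against the name unannotated for a majority, and they are called in-sense loci here. By shape, with limits of 90% and 10% of the host span that were set after the data were seen, 2277 (58.7%) covered nearly the whole host. A further 875 (22.6%) covered part of it, 298 (7.68%) held the gene plus an extension, 151 (3.89%) lay inside and covered under 10% of it, 139 (3.58%) joined several genes and 138 (3.56%) crossed 1 edge.

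By place, 2594 loci (66.9%) overlapped several exons of the host and 103 (2.66%) lay in introns only. The median span was 23132 bases (quartiles 9925 and 51929, range 211 to 2885733). The 298 extended loci added a median of 5419 bases (quartiles 2473 and 15480), more beyond the 5′ end of the host in 171 and more beyond the 3′ end in 127. The 875 partial loci covered a median of 61.7% of the host; 507 lacked more at its 5′ end and 366 more at its 3′ end. The loci lay on both strands about equally (1984 plus, 1894 minus), 140 (3.61%) held a RefSeq miRNA hairpin, and 469 also overlapped a gene on the other strand. Their density ran between 29.7 loci per 100 genes on chromosome 7 and 43.1 on chromosome 19.

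The locus in Alb (serum albumin) averaged 10970 FPKM and began upstream of the annotated start of Alb, followed by those in Mup20 (a major urinary protein) at 2188 FPKM and Fga (the fibrinogen alpha chain) at 1944 FPKM. The other 7 of the highest 10 lay in Sepp1, Ttr, Mat1a, Serpina1b, Apoe, Mup13 and Ambp. Over all 3878 loci the median was 6.27 FPKM (quartiles 3.15 and 13.5), and between 0 and 2 of them were at 0 in any library. A locus stood at a median of 0.918 of the FPKM of its host (quartiles 0.798 and 0.952), with 50 loci above 2 times and 230 below 50% of the host.

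The libraries were even in the summed FPKM of these loci, which ran between 104111 and 113746. Depth in reads is unknown, because FPKM does not keep it. The hepatocyte markers (8 of 8 genes found) summed to 22170 to 24190 FPKM in IPO, 22210 to 29990 in IR and 16830 to 24960 in sham livers, as the label liver requires, and no marker gene of any list was at 0 in all libraries. Neutrophil markers (5 of 6 found) summed to 46.9 to 127 FPKM in IPO, 10.4 to 71.1 in IR and 63.2 to 89.6 in sham livers, and Kupffer cell markers (6 of 6) to 93.1 to 111 FPKM in IPO, 86.8 to 338 in IR and 75.2 to 102 in sham livers. The sums of Kupffer, T and NK cell, erythroid (5 of 5 found, up to 1196 FPKM) and sinusoidal endothelial markers (6 of 6 found, up to 94.7 FPKM) were highest in IR replicate 3. The endothelial marker Lyve1 went the other way, at 16.96 FPKM in IR replicate 3, below every IPO and sham library. Sham replicate 3 lay within the IR range in the hepatocyte sum (24960 FPKM). It lay below every IR library in the Kupffer (75.16 FPKM) and endothelial sums (45.78 FPKM) and above every IR library in the neutrophil sum (89.58 FPKM). The 13 mitochondrially encoded genes summed to 48020 to 54300 FPKM in IPO, 32590 to 50560 in IR and 45220 to 47110 in sham livers, lowest in IR replicate 1. The part of these markers in any change below was not tested. In bulk tissue, fewer cells of a type and less RNA per cell cannot be told apart.

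In IR livers, in-sense loci moved in both directions relative to sham, and nearly always with the gene that holds them. Changes were tested with limma on log2(FPKM + 0.5), with Benjamini-Hochberg adjustment over all 5779 tested loci and a threshold of 0.05; a fold change on this scale understates the change of low loci. Of the 3878 loci, 481 were called in IR relative to sham livers (12.4%), 165 of them higher and the rest lower, close to the background of 12.6% of all tested loci (3.31% higher, 9.33% lower) and beside 11.5% of all 9649 tested genes. A fold of at least 2 held for 196 of the 481. The count leaned on single libraries. It was 583 with sham replicate 3 left out, 304 with IR replicate 1, 271 with IR replicate 2 and 291 with IPO replicate 3 left out, and 159 and 157 when sham replicates 1 and 2 were left out. With the number in the sample descriptions as a term it was 120. All IR libraries and sham replicate 2 carry the same number, and sham replicates 1 and 3 carry another. With this term the change for IR over sham therefore rests on sham replicate 2 as the only sham library with the number of IR. Of the 481 called loci 34.3% were higher, against 37.1% (164 higher, 278 lower) under median-of-ratios scaling and 46.5% (187 higher, 215 lower) under quantile normalization.

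The 5 largest rises in IR livers lay in Fosb, Chka, Gdf15, Kcnk5 and Ifrd1, of which Fosb, Chka and Gdf15 are on the list of immediate early and stress genes. Of the 22 genes on that list, 7 held an in-sense locus, and 6 of the 7 loci were higher and 0 lower in IR than in sham livers, with a median log2 change of 2.77 against -0.03 over all 3878. Of all tested loci, 3.31% were higher. All 7 hosts were higher (3.86% of all tested genes were), with a median log2 change of 3.02. The locus that did not follow was the one in Egr1, described further down. The list was drawn up with results of these libraries known, so these counts describe it and do not test it.

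Fosb encodes a basic leucine zipper partner of Jun in the AP-1 factor. Its locus MSTRG.20623 (chr7:19302702-19310038, minus strand), which covers nearly the whole gene, had 0.0693, 0.488 and 0.564 FPKM in IPO livers, 48.0, 42.3 and 39.1 FPKM in IR livers, and 0.0353, 0.0311 and 0.965 FPKM in sham livers. The 3 IR libraries stood above all others with no overlap, while IPO and sham overlapped near the limit of detection. The log2 change was 5.86 for IR over sham (SE 0.39, limma adjusted p = 0.000557) and -5.69 for IPO over IR (adjusted p = 0.000501); the host Fosb changed by 6.09 for IR over sham.

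Jun is the central AP-1 subunit and a gene without introns. Its locus MSTRG.16011 (chr4:95049940-95052217, minus strand) lay within the single exon, beginning 5 bases inside its 5′ end, ending 906 bases short of its 3′ end and covering 71.4% of it. It had 12.9, 20.2 and 16.7 FPKM in IPO livers, 105, 197 and 204 FPKM in IR livers, and 19.6, 20.2 and 31.7 FPKM in sham livers, or 16.6 ± 3.61, 169 ± 55 and 23.8 ± 6.79 FPKM as means (SD, n = 3 each). Every IR library was above every IPO and sham library. The log2 change was 2.77 for IR over sham (SE 0.29, limma adjusted p = 0.0014), beside 2.76 for Jun itself, and -3.27 for IPO over IR (SE 0.29, adjusted p = 0.000501), beside -3.25 for Jun.

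Chka, choline kinase alpha, phosphorylates choline for phosphatidylcholine synthesis. Its locus MSTRG.11082 (chr19:3851810-3894364, plus strand) had 0.757, 1.57 and 1.44 FPKM in IPO livers, 24.1, 14.3 and 10.5 FPKM in IR livers, and 1.24, 0.931 and 1.65 FPKM in sham livers. IR lay apart from both other groups, with log2 changes of 3.18 for IR over sham (SE 0.31, limma adjusted p = 0.00132) and -3.21 for IPO over IR (adjusted p = 0.00055). The locus in Ifrd1, a transcriptional co-regulator outside that list (MSTRG.5159, chr12:40203129-40248504, minus strand), had 2.33, 3.98 and 2.83 FPKM in IPO livers, 21.9, 17.7 and 26.6 FPKM in IR livers, and 2.37, 2.13 and 3.43 FPKM in sham livers. Again no IR library overlapped the others, and its log2 change for IR over sham was 2.85 (SE 0.23, adjusted p = 0.00112).

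Gdf15 encodes a stress-induced cytokine of the TGF-beta family. Its locus MSTRG.22953 (chr8:70629393-70632456, minus strand) had 16.7, 15.6 and 29.2 FPKM in IPO livers, 55.4, 103 and 31.6 FPKM in IR livers, and 7.70, 6.7 and 6.18 FPKM in sham livers. The IR libraries were above all others, IR replicate 3 only just above IPO replicate 3, and both IR and IPO were above sham. The log2 change was 2.96 for IR over sham (SE 0.39, limma adjusted p = 0.00346) and -1.50 for IPO over IR (adjusted p = 0.0267). The IPO call was lost without IR replicate 1, IR replicate 2, IPO replicate 1 or IPO replicate 2, with adjusted p between 0.0599 and 0.089. Kcnk5, a background potassium channel also outside the list, held MSTRG.6780 with 1.38, 1.08 and 0.851 FPKM in IPO livers, 31.7, 9.08 and 16.8 FPKM in IR livers and 0.419, 1.26 and 6.58 FPKM in sham livers. The IR values were highest, and the change of 2.95 (SE 0.68, adjusted p = 0.0251) was lost without sham replicate 1, sham replicate 2, IR replicate 1 or IR replicate 3 (adjusted p 0.0506 to 0.0901).

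The other called loci of the immediate early and stress list lay in Gadd45b and Osgin1. Gadd45b, a stress sensor, held MSTRG.2446 with 13.1, 18.0 and 13.5 FPKM in IPO livers, 103, 74.9 and 72.3 FPKM in IR livers, and 13.4, 11.4 and 21.7 FPKM in sham livers; IR stood apart, at a log2 change of 2.43 (limma adjusted p = 0.00132). The locus in Osgin1, an oxidative stress response gene (MSTRG.23608), changed by 2.5 for IR over sham (adjusted p = 0.0208), a call lost without sham replicate 2 (adjusted p 0.0571) or IR replicate 2 (adjusted p 0.0645).

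The 5 largest falls in IR livers lay in Saa1, Tifa, Cxcl1, B3galt1 and Slc41a2, of which Saa1 is on the list of acute phase genes. Of 34 listed acute phase genes, 16 held an in-sense locus. In IR relative to sham livers 0 of these were higher, 11 lower and 5 not called, with a median log2 change of -1.26, and for IPO over IR 11 were higher and 1 lower (in C4b, by -0.51, a call lost in 8 of the 9 fits that leave out a library), with a median of 1.48. Over all tested loci, 3.31% were higher and 9.33% lower for IR over sham, and 11.9% higher and 8.03% lower for IPO over IR. The hosts of the 16 gave 0 higher and 12 lower calls for IR over sham, beside 7.64% of all tested genes called lower. These are counts over genes listed with results of these libraries known. The 11 lower loci lay in Saa1, Saa4, Serpina3n, Il1r1, Itih3, Itih4, Fga, Fgb, Orm1, Mt1 and Mt2. Those in Serpina1b, Serpina3m, C3, C4b and Cp did not pass. The neutrophil marker sum, given above, was lower in IR replicates 1 and 2 than in any IPO or sham library but not in IR replicate 3, and its part in these falls was not tested.

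Saa1 encodes serum amyloid A1, an apolipoprotein of the acute phase. Its locus MSTRG.21175 (chr7:46740497-46742980, minus strand) had exactly the coordinates of Saa1. It had 981, 562 and 602 FPKM in IPO livers, 10.3, 8.46 and 118 FPKM in IR livers, and 1030, 1200 and 512 FPKM in sham livers. The IR libraries were below every other library, with replicate 3 far above the other two. The log2 change was -5.25 for IR over sham (SE 0.85, limma adjusted p = 0.00636) and 4.94 for IPO over IR (adjusted p = 0.00536). Saa family members are near-identical, so the assignment of their reads is uncertain.

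Serpina3n, a protease inhibitor of the acute phase, held MSTRG.5636 with 1471, 1314 and 1137 FPKM in IPO livers, 165, 163 and 204 FPKM in IR livers, and 1578, 1446 and 797 FPKM in sham livers. IR did not overlap the other groups, and the log2 change was -2.79 for IR over sham (limma adjusted p = 0.00112) and 2.88 for IPO over IR (adjusted p = 0.000501). The locus in Il1r1, the receptor of interleukin-1 (MSTRG.252), had 114, 117 and 98.2 FPKM in IPO livers, 9.93, 11.5 and 12.2 FPKM in IR livers, and 124, 102 and 47.1 FPKM in sham livers. The log2 change was -2.86 for IR over sham (adjusted p = 0.0014), and the IPO values lay within the range of the sham values.

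Fga and Fgb encode the alpha and beta chains of fibrinogen, the clotting protein that hepatocytes secrete. The Fga locus MSTRG.14397 (chr3:83026076-83033627, plus strand) had 3086, 2373 and 2529 FPKM in IPO livers, 1008, 1045 and 722 FPKM in IR livers, and 2391, 2402 and 1938 FPKM in sham livers. The Fgb locus MSTRG.14399 (chr3:83042246-83049863, minus strand) had 1344, 1104 and 1174 FPKM in IPO livers, 438, 455 and 380 FPKM in IR livers, and 1031, 1027 and 925 FPKM in sham livers. IR was lowest at both without overlap, and both changes for IR over sham, -1.29 (limma adjusted p = 0.00374) and -1.23 (adjusted p = 0.00132), held without any single library.

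The metal-binding metallothioneins and a zinc importer also held loci that fell. The locus in Mt2 (MSTRG.23282) had 1038, 1040 and 1013 FPKM in IPO livers, 213, 136 and 166 FPKM in IR livers, and 897, 999 and 553 FPKM in sham livers, a log2 change of -2.23 for IR over sham (limma adjusted p = 0.00132). The locus in Mt1 (MSTRG.23286) changed by -1.98 (adjusted p = 0.00161). Slc39a14, a zinc and iron importer, held MSTRG.7445 with 96.1, 91.4 and 88.0 FPKM in IPO livers, 17.2, 15.9 and 14.4 FPKM in IR livers, and 83.9, 69.5 and 46.5 FPKM in sham livers. IR was lowest in each case with no overlap, and MSTRG.7445 changed by -2.0 for IR over sham (adjusted p = 0.00132).

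Cxcl1, a chemokine that draws neutrophils, held MSTRG.17823 (chr5:90891243-90893113, plus strand) with 119, 57.8 and 68.7 FPKM in IPO livers, 4.98, 6.56 and 20.6 FPKM in IR livers, and 153, 135 and 80.8 FPKM in sham livers. All IR values were below all others, a log2 change of -3.67 for IR over sham (SE 0.49, limma adjusted p = 0.0037) and 3.07 for IPO over IR (adjusted p = 0.00395). Tifa, an adaptor of NF-kB signalling, held MSTRG.15133 (chr3:127789069-127798389, plus strand), whose first base lay at -736 from the start of the gene and which covered 20.3% of it. It had 61.5, 43.6 and 41.5 FPKM in IPO livers, 1.73, 2.09 and 4.44 FPKM in IR livers, and 141, 62.2 and 17.7 FPKM in sham livers. IR was lowest, and the log2 change was -4.16 for IR over sham (SE 0.63, adjusted p = 0.00513), beside -4.06 for Tifa itself.

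**Figure D1:**
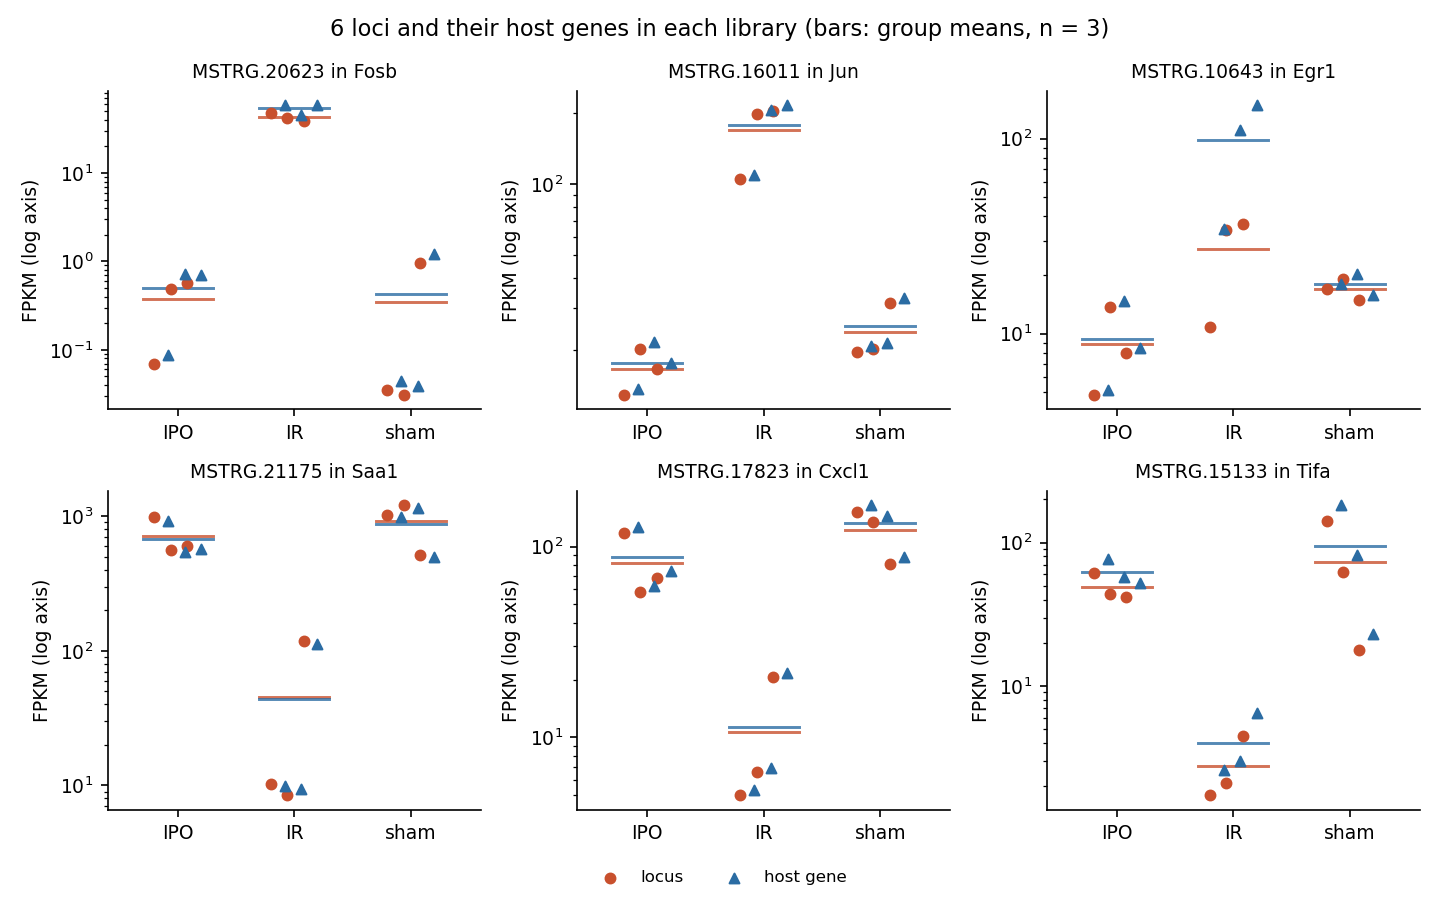
FPKM on log axes of 6 in-sense loci (circles) and their host genes (triangles) in each library of IPO, IR and sham livers, with bars at the group means (n = 3). The IR libraries of Fosb and Jun lie above, and those of Saa1, Cxcl1 and Tifa below, the other groups, and in the Egr1 panel the IR circles lie below the IR triangles.

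Loci in other host groups moved less. Beside their counts, here and in the paragraphs on drug metabolism and fuel genes, stand the shares over all 5779 tested loci. These were 3.31% higher and 9.33% lower for IR over sham, and 11.9% higher and 8.03% lower for IPO over IR. No group count was tested against these shares. Of 12 loci in circadian clock genes, 4 were higher and 0 lower in IR than in sham livers (median log2 change 0.51), and 1 to 3 were higher when a library was left out (1 without sham replicate 1 or 2, and 2 without IR replicate 1, IR replicate 3 or any IPO replicate). Nr1d1, the repressor Rev-erb alpha, held MSTRG.4395 with 8.29, 11.0 and 10.7 FPKM in IPO livers, 28.3, 30.0 and 23.6 FPKM in IR livers, and 7.30, 5.68 and 7.23 FPKM in sham livers. IR lay apart, and the log2 change of 1.94 for IR over sham (limma adjusted p = 0.00112) held without any single library. The other 3 were in Per1 (0.98, adjusted p = 0.0176, lost without sham replicate 1 or 2 at 0.0648 to 0.0729), Cry2 (1.21, adjusted p = 0.0463) and Arntl (0.83, adjusted p = 0.0416). The Cry2 call was lost in 7 of the 9 fits that leave out a library (adjusted p up to 0.152; it held without IR replicate 2 and without sham replicate 3) and the Arntl call in all 9 (up to 0.121).

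Of 69 loci in cytochrome P450 and drug metabolism genes, 5 were higher and 3 lower in IR than in sham livers, and 3 were higher and 11 lower in IPO than in IR livers; with a library left out these ran over 0 to 11, 3 to 4, 2 to 5 and 4 to 16. The 5 lay in Cyp7a1, Cyp2d9, Abcb4, Abcc6 and Ces3b and the 3 in Cyp2c29, Cyp2c70 and Cyp3a13, the last 3 also being those higher in IPO. Of all tested loci, 12.6% were called for IR over sham and 20.0% for IPO over IR. Cyp7a1, the rate-limiting enzyme of bile acid synthesis, held MSTRG.15381 with 1.13, 0.745 and 1.01 FPKM in IPO livers, 6.18, 9.46 and 7.72 FPKM in IR livers, and 0.575, 0.479 and 4.84 FPKM in sham livers. IR was highest, but sham replicate 3 stood close to it, and the log2 change of 2.20 for IR over sham (limma adjusted p = 0.0336) was lost in 8 of the 9 fits that leave out a library (adjusted p up to 0.123; it held without sham replicate 3). Cyp2c29, a xenobiotic oxidase, held MSTRG.11630 with 197, 131 and 154 FPKM in IPO livers, 26.0, 53.4 and 45.8 FPKM in IR livers, and 123, 137 and 176 FPKM in sham livers. It was lower in every IR library, by -1.83 on the log2 scale (adjusted p = 0.0049). Cyp2c70, an enzyme of mouse bile acid hydroxylation, held MSTRG.11657 with 210, 150.1 and 126 FPKM in IPO livers, 26.8, 31.0 and 33.5 FPKM in IR livers, and 69.5, 77.2 and 58.1 FPKM in sham livers. The 3 groups did not overlap, with IPO highest, and the change was 2.37 for IPO over IR (adjusted p = 0.000501).

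Of 16 loci in fuel and amino acid genes, 2 were higher and 0 lower in IR than in sham livers, 1 in G6pc (the last enzyme of glucose release, 2.17) and 1 in Ppara (a fatty acid sensor, 0.78); the G6pc call was lost without sham replicates 1 or 2 or any IR replicate and the Ppara call without sham replicates 1 or 2 or IR replicate 2. Of 15 in lipid, cholesterol and bile acid genes 5 were higher and 0 lower (1 to 6 higher with a library left out), in Srebf1, Lpin2, Fads2, Elovl3 and Insig1. Elovl3, a fatty acid elongase, held MSTRG.11768 with 38.6, 50.8 and 61.5 FPKM in IPO livers, 109.6, 142 and 147 FPKM in IR livers, and 69.5, 51.1 and 37.3 FPKM in sham livers. All IR values were highest, and its change of 1.36 for IR over sham (limma adjusted p = 0.0107) held without any single library. Of 99 in solute carriers 6 were higher and 10 lower (3 to 11 and 5 to 14 with a library left out), beside 3.31% higher and 9.33% lower over all tested loci. Of 13 in serpins 0 were higher and 2 lower (0 to 1 and 2 with a library left out), Serpina3n as above and Serpina10, an inhibitor of clotting factors, by -1.95 (adjusted p = 0.00374).

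IPO livers differed from IR livers at more loci than IR from sham. The number in the sample descriptions also separates all IPO libraries from all IR and all sham libraries. The group and this number therefore cannot be told apart for IPO over IR or for IPO over sham. In IPO relative to IR livers, 439 loci were higher and 397 lower (21.6%), against a background of 20.0% of all tested loci (11.9% higher, 8.03% lower) and 22.1% of all tested genes. The count was 433, 450 and 478 without IPO replicates 1, 2 and 3. The higher share was 52.5%, and 44.8% (373 higher, 460 lower) under quantile normalization. The largest rises were in Saa1, Tifa, B3galt1, Syt12 and Slc41a2, and the largest falls in Fosb, Kcnk5, Jun, Chka and Ifrd1. Slc41a2, a magnesium transporter, held MSTRG.2514 with 37.0, 26.1 and 24.1 FPKM in IPO livers, 1.20, 2.63 and 4.12 FPKM in IR livers, and 39.9, 31.0 and 9.37 FPKM in sham livers. IR was lowest, and the log2 change for IPO over IR was 3.32 (limma adjusted p = 0.00368). Syt12, a synaptotagmin, held MSTRG.11125 with 5.54, 11.0 and 9.40 FPKM in IPO livers, 0.373, 0.134 and 0.323 FPKM in IR livers and 9.86, 5.06 and 0.836 FPKM in sham livers, a change of 3.52 (adjusted p = 0.00626). Of the loci called in IR over sham, 365 were also called in IPO over IR, 129 higher and then lower and 236 lower and then higher; both comparisons share the IR libraries, so this count is no independent evidence.

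IPO and sham livers differed at 5 higher and 2 lower loci (0.181%, background 0.173%, with 0.121% higher and 0.0519% lower), while 500 loci had an unadjusted p under 0.05. Tmem70, an assembly factor of mitochondrial ATP synthase, held MSTRG.97 with 7.69, 6.19 and 7.16 FPKM in IPO livers, 13.8, 17.3 and 19 FPKM in IR livers, and 24.1, 27.7 and 20.8 FPKM in sham livers. The 3 groups did not overlap, and the log2 change was -1.71 for IPO over sham (SE 0.17, limma adjusted p = 0.014), lost without sham replicate 1, sham replicate 2, IR replicate 2 or IPO replicate 3 (adjusted p 0.0531 to 0.0873). Tnfrsf12a, the receptor of the cytokine TWEAK, held MSTRG.9513 with 22.5, 50.2 and 43.0 FPKM in IPO livers, 19.2, 9.46 and 12.0 FPKM in IR livers, and 7.47, 5.68 and 5.85 FPKM in sham livers. IPO was highest and sham lowest, a change of 2.45 for IPO over sham (SE 0.33, adjusted p = 0.0367).

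Aqp8, a water channel, held MSTRG.21966 with 8.96, 5.36 and 11.4 FPKM in IPO livers, 8.36, 6.13 and 6.20 FPKM in IR livers, and 1.78, 1.02 and 2.23 FPKM in sham livers. Its IPO and IR values overlapped and both lay above sham, with log2 changes of 2.04 for IPO over sham (limma adjusted p = 0.0432) and 1.79 for IR over sham (adjusted p = 0.00662). The remaining IPO calls over sham were Adck4 (1.35), Efhd2 (1.22) and Fndc4 (1.12), each at an adjusted p of 0.0367, and Zfp395 (-1.12, adjusted p = 0.0447). Among the 7 calls over sham, the one in Tmem70 was lost in 4 of the 9 fits that leave out a library. Those in Tnfrsf12a, Aqp8 and Efhd2 were lost in 8 and those in Adck4, Fndc4 and Zfp395 in all 9, with adjusted p up to 0.182. The exceptions were IPO replicate 1 for Tnfrsf12a and Efhd2 and IPO replicate 2 for Aqp8.

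Most loci followed their host closely. Over the 9 libraries, on the log2 scale, the correlation of a locus with its host had a median Pearson r of 0.991 and was above 0.9 in 2966 loci (77.2%) of the 3843 whose host reached 1 FPKM. Locus and host come from the same libraries in the same 3 groups and can hold the same fragments, so these values describe likeness and are no test. Across loci, the log2 changes of locus and host correlated at r = 0.935 for IR over sham, 0.942 for IPO over IR and 0.894 for IPO over sham; loci are not independent replicates. Of 477 loci called for IR over sham with a tested host, 421 (88.3%) lay in a called host, which is 78.4% of the 537 called hosts counted per locus. Shared calls for IPO over IR came to 764, 91.9% of 831 loci and 76.2% of 1003 hosts. Opposite signs among shared calls came to 0 of 421 and 1 of 764, the intron locus in Peak1 described at the end.

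**Figure D2:**
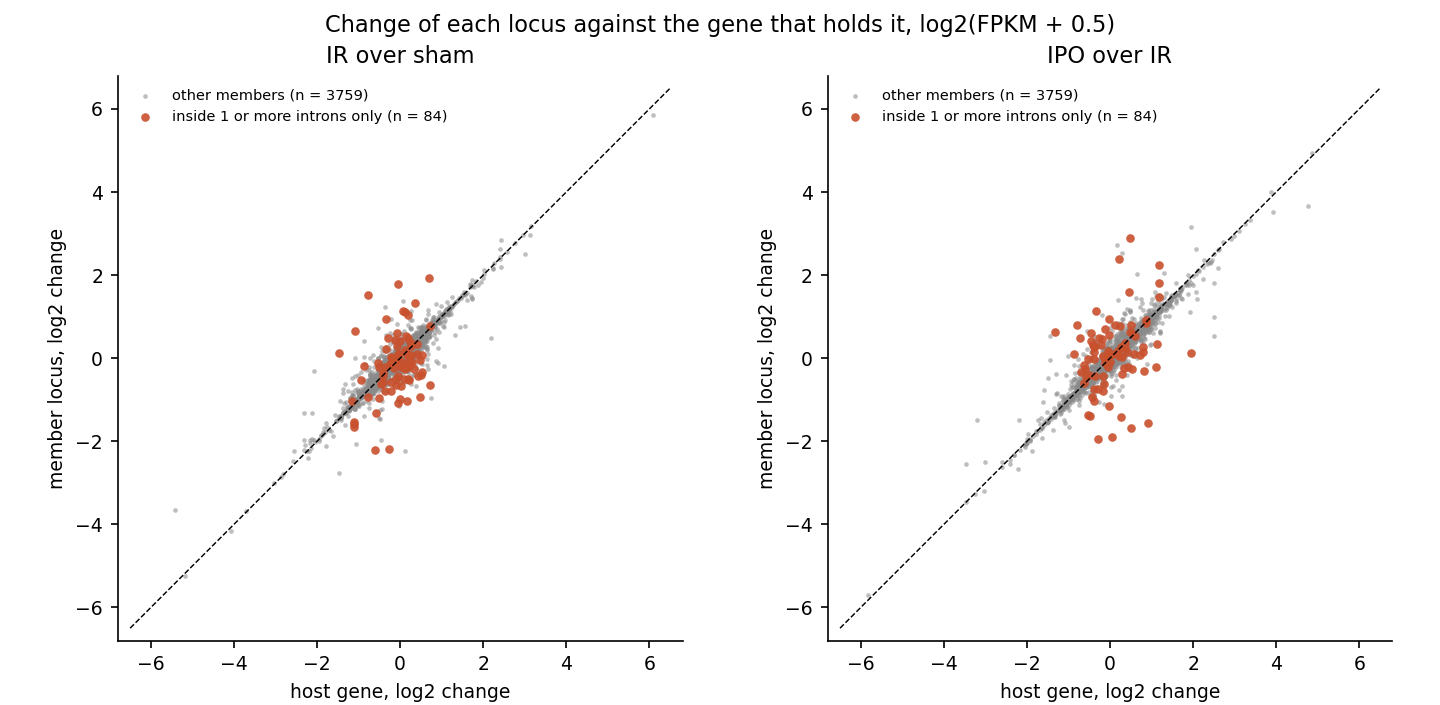
Log2 change of each in-sense locus (vertical axis) against that of its host gene (horizontal axis) for IR over sham and IPO over IR, on log2(FPKM + 0.5), for the 3843 loci with a host of at least 1 FPKM; the dashed line marks equal change. Most grey points follow the line, while the 84 intron loci (orange) scatter across it.

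Likeness to the host depended on shape. The median r was 0.992 for loci over nearly the whole gene, 0.995 for partial loci, 0.979 for extended loci and 0.979 for loci across 1 edge. It was 0.853 for loci that join several genes, 0.65 for those that cover under 10% of the host, and 0.208 for the 84 loci in introns with a tested host, of which 3.57% exceeded 0.9. The correlation of changes for IR over sham followed the same order at its lower end, at 0.803 for joined loci, 0.543 for small parts and 0.334 for intron loci, against 0.966 for whole-gene loci.

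**Figure D3:**
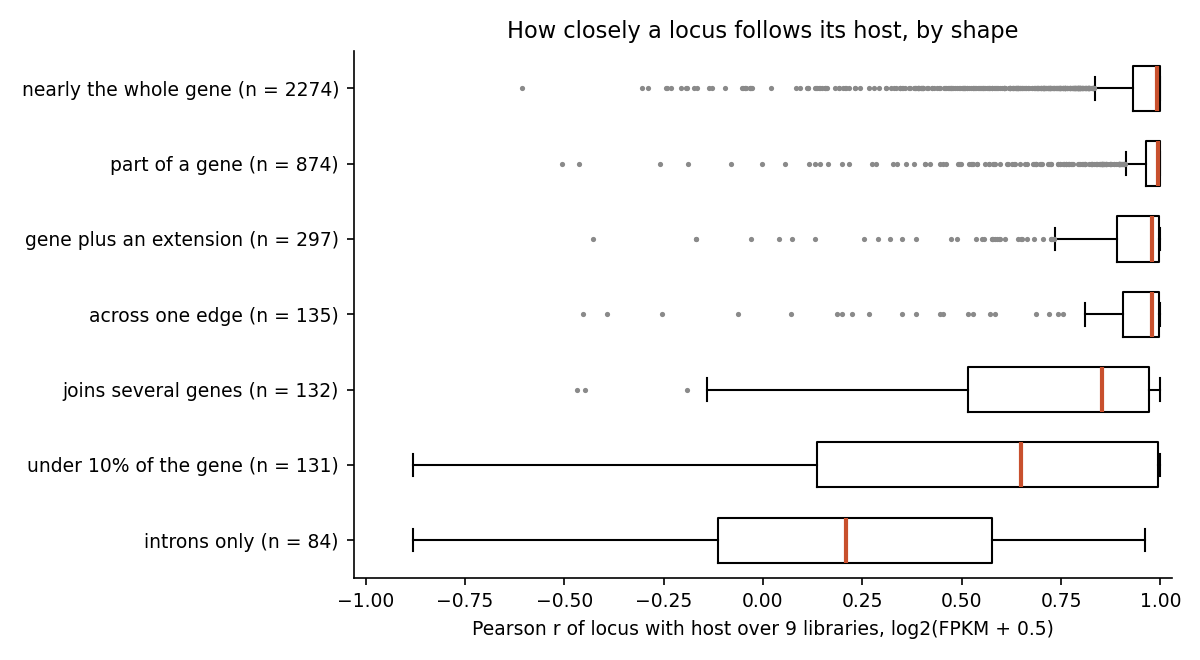
Pearson r between locus and host over the 9 libraries on log2(FPKM + 0.5), by shape of the locus; boxes span the quartiles with the median as a coloured line, and dots are loci beyond the whiskers. The intron row is a group by place and overlaps the row of small parts; medians run between 0.995 for parts of a gene and 0.208 for introns.

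The change of a locus beyond that of its host was tested in the per-library difference of their log2 values, adjusted over 5778 paired loci. Of these pairs 3948 were with a same-strand gene of at least 1 FPKM, 723 with an opposite-strand gene and 1107 with the nearest gene, so the background is not of loci and hosts alone; over the 3948 same-strand pairs, which include the 3850 loci below, 0.557% were called for IR over sham, 0.659% for IPO over IR and 0.0253% for IPO over sham. In 7 of the 3850 the gene was another overlapped same-strand gene, not the host. Among 3850 tested in-sense loci, 16 rose more or fell less than the host and 6 the opposite for IR over sham (0.571%, background 1.09%, with 0.554% and 0.537% in those directions). For IPO over IR the counts were 10 and 16 (0.675%, background 1.66%, with 0.883% and 0.779%), and for IPO over sham 0 and 1 (0.026%, background 0.0346%). The difference of these shares from the background was not tested. The fit let the spread depend on the mean log2 ratio, and the SE could become very large at extreme ratios. For MSTRG.9110 in Cmss1 it was 90.26 beside a change of 1.073 for IR over sham. Loci far above their host could thus hardly be called, and a missing call there does not show that they follow it. Of 84 intron loci 0 were called for IR over sham and 1 for IPO over IR.

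Among the named differences from the host, those in Egr1, a zinc finger factor of the immediate early response, were the ones that held in every fit that leaves out a library. The locus MSTRG.10643 (chr18:34861207-34864956, plus strand) covers 72.6% of the gene and lacks its first 1384 bases and its last 28. The locus had 4.86, 13.7 and 7.95 FPKM in IPO livers, 10.9, 34.0 and 36.7 FPKM in IR livers, and 16.9, 19 and 15.0 FPKM in sham livers. Egr1 as annotated had 5.14, 14.6 and 8.40 FPKM in IPO livers, 34.4, 111 and 149 FPKM in IR livers, and 17.9, 20.2 and 15.7 FPKM in sham livers. The annotated gene was thus highest in the 3 IR libraries, while the locus overlapped sham.

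The locus stood at 0.943 ± 0.00477 of the FPKM of Egr1 in IPO livers, at 0.290 ± 0.0376 in IR livers and at 0.946 ± 0.00535 in sham livers (SD, n = 3 each), with no overlap between IR and either other group. Relative to Egr1, MSTRG.10643 changed by -1.70 on the log2 scale for IR over sham (SE 0.09, limma adjusted p = 0.00125) and by 1.69 for IPO over IR (adjusted p = 0.00212). Both calls held in each of the 9 fits that leave out a library (adjusted p up to 0.018). By itself, the locus changed by 0.49 for IR over sham (adjusted p = 0.526) and Egr1 by 2.19 (adjusted p = 0.0276).

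B3galt1, a galactosyltransferase, held MSTRG.12642 (chr2:67970675-68122689, plus strand), which lacks the first 404804 bases of the gene and covers 27.3% of it. The locus had 16.0, 9.52 and 12.2 FPKM in IPO livers, 0.314, 0.657 and 0.589 FPKM in IR livers, and 20, 14.7 and 6.27 FPKM in sham livers. B3galt1 had 39.4, 24.4 and 29.4 FPKM in IPO livers, 0.267, 0.941 and 0.802 FPKM in IR livers, and 92.5, 75.7 and 15.5 FPKM in sham livers. Both were lowest in IR without overlap. The locus changed by -3.67 for IR over sham (SE 0.37, limma adjusted p = 0.00132) and the gene by -5.42. The difference of 1.75 (SE 0.28, adjusted p = 0.0441) was lost in 8 of the 9 fits that leave out a library (adjusted p 0.0847 to 0.148; it held without sham replicate 3) and with a pseudocount of 0.1 (0.06).

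Marf1, a regulator of RNA in the germ line, held MSTRG.8632 (chr16:14109236-14128631, minus strand), which lacks 30643 bases at the 5′ end of the gene and covers 38.7% of it. The locus had 5.91, 5.94 and 6.39 FPKM in IPO livers, 4.76, 6.29 and 6.10 FPKM in IR livers, and 9.15, 9.96 and 12.6 FPKM in sham livers. Its share of the FPKM of Marf1 was 0.679 ± 0.0367 in IPO livers, 0.917 ± 0.0404 in IR livers and 0.948 ± 0.00191 in sham livers (SD, n = 3 each), lowest in IPO with no overlap. Relative to Marf1 it changed by -0.41 for IPO over IR (limma adjusted p = 0.0136), a call lost without IPO replicate 1 (0.051). For IPO over sham the change was -0.45 (adjusted p = 0.0463), lost without sham replicate 1, sham replicate 2, IR replicate 2, IR replicate 3, IPO replicate 1 or IPO replicate 2 (0.058 to 0.157).

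Tmem87b, a Golgi membrane protein, held MSTRG.13270 with exactly its own coordinates (chr2:128818118-128854261, plus strand) and yet other values. The locus had 6.69, 6.14 and 5.89 FPKM in IPO livers, 2.81, 2.98 and 2.93 FPKM in IR livers, and 12.7, 9.57 and 4.15 FPKM in sham livers. Tmem87b had 20.3, 20.9 and 19.6 FPKM in IPO livers, 2.29, 3.61 and 3.77 FPKM in IR livers, and 18.8, 16.6 and 11.7 FPKM in sham livers. Their ratio was 0.308 ± 0.0187 in IPO livers, 0.944 ± 0.248 in IR livers and 0.536 ± 0.165 in sham livers (SD, n = 3 each). The relative change of -1.52 for IPO over IR (limma adjusted p = 0.0357) was lost in 7 of the 9 fits that leave out a library (adjusted p 0.0566 to 0.119) and held without sham replicate 1 and without sham replicate 3.

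For IR over sham the log2 change relative to the host was 0.33 in Nrg4 (limma adjusted p = 0.0291) and 0.28 in Mrpl15 (0.022), and it was -0.67 in Haus1 (0.014), -0.64 in Gm826 (0.0265), -0.40 in Abhd15 (0.0291) and -0.38 in Atn1 (0.0415). Haus1 was lost only without sham replicate 1 (0.051). For IPO over IR it was 1.05 for the intron locus of Slc39a11 (0.0289), 0.78 in Nlrp12 (0.0358), 0.76 in Ido2 (0.0446) and 0.72 in Usp10 (0.0447), and it was -0.26 in Insc (0.018) and -0.25 in Zfand5 (0.0147). The calls in Insc and Zfand5 were lost without any 1 of the 3 IPO libraries, and the remaining ones without 4 to 9 of the 9 libraries, with adjusted p up to 0.142.

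The 139 joined loci overlapped several same-strand genes, exactly 2 in 110 of them and up to 8, and 7 of the 139 lay in introns only. In the 70 where the gene sharing the most bases was not the one with the highest FPKM, the median r was 0.689 with the first and 0.887 with the second, and 45 of the 70 followed the higher gene more closely.

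MSTRG.5631 (chr12:104338486-104401759, plus strand) joined Serpina3k and Serpina3m. The listed span of Serpina3m (104338486 to 104394257) holds that of Serpina3k (104338486 to 104346144). The locus had 792, 797 and 776 FPKM in IPO livers, 618, 527 and 501 FPKM in IR livers, and 687, 632 and 729 FPKM in sham livers. Serpina3m, which shared the most bases, had 1132, 925 and 920 FPKM in IPO livers, 149, 220 and 160 FPKM in IR livers, and 894, 737 and 610 FPKM in sham livers. Serpina3k had 3645, 3826 and 3746 FPKM in IPO livers, 3395, 2800 and 2699 FPKM in IR livers, and 3224, 3041 and 3342 FPKM in sham livers. Serpina3m was far lower in IR than in the other groups, Serpina3k overlapped sham, and the locus lay slightly lower in IR.

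For IR over sham the locus MSTRG.5631 changed by -0.32 (SE 0.12, limma adjusted p = 0.105), Serpina3m by -2.08 (SE 0.188, adjusted p = 0.000749) and Serpina3k by -0.118 (adjusted p = 0.528). The locus changed by 0.53 for IPO over IR (adjusted p = 0.0144), lost without IR replicate 2 or IPO replicate 2 (0.0502 to 0.0541). The ratio of the locus to Serpina3m was 0.801 ± 0.0889 in IPO, 3.22 ± 0.874 in IR and 0.940 ± 0.225 in sham livers, while that to Serpina3k was 0.211 ± 0.00555 in IPO, 0.185 ± 0.00311 in IR and 0.213 ± 0.00518 in sham livers (SD, n = 3 each). Relative to Serpina3m the locus rose by 1.76 for IR over sham (adjusted p = 0.0265) and changed by -1.97 for IPO over IR (adjusted p = 0.0189). With Serpina3k as host these turned to -0.201 (adjusted p = 0.0992) and 0.1862 (adjusted p = 0.0941). The first was also lost without sham replicates 1 or 2, IR replicates 1 or 3 or any IPO replicate (0.0506 to 0.101), and the second without any IPO replicate (0.0566 to 0.0727).

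MSTRG.2895 (chr10:128267997-128292849, plus strand) joined Apof, an apolipoprotein, and Stat2, a factor of interferon signalling. It had 75.7, 70.5 and 76.4 FPKM in IPO livers, 66.3, 72.1 and 82.9 FPKM in IR livers, and 64.1, 83.9 and 71.7 FPKM in sham livers. Stat2 had 15.9, 13.1 and 13.6 FPKM in IPO livers, 7.42, 8.37 and 11.0 FPKM in IR livers, and 20.8, 21.7 and 15.9 FPKM in sham livers, and Apof averaged 246.5 FPKM. The groups of the locus overlapped, whereas Stat2 was lowest in IR. For IR over sham the locus changed by 0.01 (limma adjusted p = 0.962), Stat2 by -1.09 (SE 0.175, adjusted p = 0.00693) and Apof by -0.028 (adjusted p = 0.881). The difference from Stat2 of 1.10 (SE 0.14, adjusted p = 0.022) was lost without sham replicate 2, IR replicate 1, IR replicate 2 or IPO replicate 2 (0.0594 to 0.0826).

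**Figure D4:**
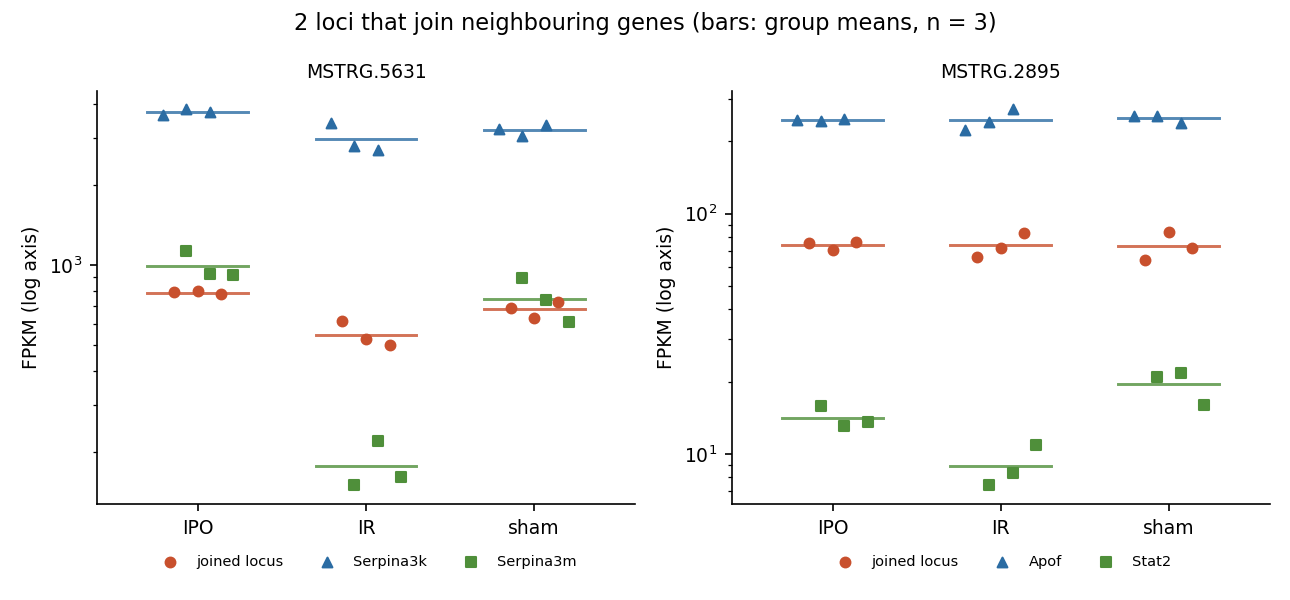
FPKM on log axes of the joined loci MSTRG.5631 (left) and MSTRG.2895 (right, circles) and of the genes each spans (triangles and squares) in each library of IPO, IR and sham livers, with bars at group means (n = 3). In IR livers Serpina3m and Stat2 lie below their IPO and sham levels, MSTRG.5631, at 501 to 618 FPKM in IR livers, also lies below its IPO and sham values but by less than Serpina3m, and MSTRG.2895, at 66.3 to 82.9 FPKM in IR livers, overlaps both other groups.

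Joined loci could also follow 1 gene closely. MSTRG.20935 (chr7:30922395-30944032, minus strand) spanned Hamp2 and Hamp, which encodes hepcidin, the hormone of iron balance. It had 722, 523 and 571 FPKM in IPO livers, 299, 239 and 320 FPKM in IR livers, and 730, 774 and 535 FPKM in sham livers. IR was lowest without overlap, a log2 change of -1.24 for IR over sham (limma adjusted p = 0.0052), beside -1.28 for Hamp (adjusted p = 0.00531). Its ratio to Hamp stayed between 0.398 and 0.422 over the 9 libraries. MSTRG.15901 spanned Orm1, Orm3 and Orm2, near-identical genes of orosomucoid, an acute phase plasma glycoprotein, and their shares are uncertain. It had 730, 557 and 616 FPKM in IPO livers, 198, 150 and 308 FPKM in IR livers, and 910, 997 and 389 FPKM in sham livers, lowest in IR. The change of -1.75 for IR over sham (adjusted p = 0.0176) was lost without sham replicate 1, sham replicate 2, IR replicate 1 or IR replicate 2 (0.0549 to 0.0721).

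The 103 loci in introns were short, and of the 84 with a tested host 55 had r under 0.5 with it over the 9 libraries. The median level of the 103 was 3.22 FPKM, and 36 of them spanned under 500 bases. The part of level and span in the low r was not tested. Spans ran between 211 and 100427 bases with a median of 827, and 58 of the loci stood above their host in FPKM. At least 50% of the span lay in an annotated pseudogene for 14, in another protein-coding gene for 7 and in neither for 82. For IR over sham 3 were higher (in Gphn, Camk1d and Cdk8) and 10 lower (12.6%, against 12.4% of all in-sense loci and 12.6% of all tested loci). For IPO over IR 11 were higher and 7 lower (17.5%, against 21.6% of all in-sense loci and 20.0% of all tested loci).

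MSTRG.1757 (chr1:192073743-192074450, minus strand), the Gstp-ps locus whose sequence is shown above, lay in an intron of Traf5, a signalling adaptor. It averaged 296.7 FPKM against 0.4741 FPKM for Traf5. It had 279, 270 and 250 FPKM in IPO livers, 412, 262 and 357 FPKM in IR livers, and between 214 and 316.4 FPKM in sham livers, overlapping between groups (log2 change 0.29 for IR over sham, limma adjusted p = 0.373). Gstp1 averaged 1071 FPKM, and the locus stood at 0.235 to 0.417 of it. Given 97.6% identity, reads of one can count for the other, and the level of the locus is uncertain.

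A pair of loci shows a named gene inside the intron of another. Each locus lay wholly inside both genes, so the tie rule made the outer gene, H13 or Itga1, its host. MSTRG.13468 (chr2:152687035-152687951, plus strand) matched Mcts2, a retrogene inside an intron of H13. It had 7.35, 5.89 and 6.64 FPKM in IPO livers, 2.23, 5.0 and 5.13 FPKM in IR livers, and 7.61, 10.3 and 7.01 FPKM in sham livers. The IR values were lowest without overlap. The log2 change of -0.99 for IR over sham (SE 0.28, limma adjusted p = 0.0485) stood beside -1.05 for Mcts2 (adjusted p = 0.0404) and 0.0078 for H13 (adjusted p = 0.974). It was lost in 8 of the 9 fits that leave out a library (adjusted p 0.052 to 0.162; it held without IR replicate 3). MSTRG.6686 (chr13:115088357-115090188, minus strand) covered Pelo, a ribosome rescue factor gene in an intron of Itga1, and stood at 0.942 to 0.970 of Pelo in every library.

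Dnajc12, a co-chaperone, held MSTRG.2215, an intron locus of 213 bases (chr10:63403365-63403577, plus strand). The locus had 66.9, 55.3 and 59.3 FPKM in IPO livers, 2.87, 7.96 and 18.6 FPKM in IR livers, and 34.8, 33.0 and 44.7 FPKM in sham livers. Dnajc12 had 3.90, 4.69 and 3.52 FPKM in IPO livers, 2.80, 2.90 and 2.51 FPKM in IR livers, and 4.81, 5.31 and 3.33 FPKM in sham livers. The groups of the locus did not overlap, with IPO highest and IR lowest. It changed by 2.90 for IPO over IR (limma adjusted p = 0.00536), which held without any single library, and by -2.20 for IR over sham (SE 0.50, adjusted p = 0.0237), lost without sham replicate 1, sham replicate 2 or IR replicate 2 (0.0603 to 0.0721). The host changed by -0.60 for IR over sham (adjusted p = 0.0564).

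Crp, the C-reactive protein gene, held 3 intron loci. MSTRG.1510 had 2.90, 2.72 and 2.82 FPKM in IPO livers, 0.563, 0.858 and 0.702 FPKM in IR livers, and 3.96, 2.78 and 2.40 FPKM in sham livers, and changed by -1.54 for IR over sham (limma adjusted p = 0.00311). MSTRG.1511 changed by -1.65 (adjusted p = 0.00374). MSTRG.1512, listed at 0 in 2 IR libraries, changed by -1.59 (adjusted p = 0.0122), lost without sham replicate 1 (0.0544). Crp itself had 234, 213 and 221 FPKM in IPO livers, 70.4, 114 and 118 FPKM in IR livers, and 224, 240 and 174 FPKM in sham livers, a change of -1.10 (adjusted p = 0.0121). All 4 were lowest in IR without overlap.

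A set of intron loci was high in IR replicates 1 and 2 but not in IR replicate 3. By a rule made after these values were seen (IR replicates 1 and 2 both above 1.5 times every other library), 7 of the 103 intron loci (6.8%) and 8 of the other 3775 in-sense loci (0.212%) had this pattern, a description with no test. The 7 lay in Cmss1, Gphn, Peak1, Camk1d, Zc3h7a, Cdk8 and Tmem104. Their r with their hosts over the 9 libraries ran between -0.549 and 0.653. The mitochondrially encoded sum was below every IPO and sham library in IR replicates 1 (32590 FPKM) and 2 (44700 FPKM) but not in IR replicate 3 (50560 FPKM), and its part in this pattern was not tested. MSTRG.9110 in Cmss1, 571 bases (chr16:57391112-57391682, minus strand), had 299, 287 and 249 FPKM in IPO livers, 995, 838 and 278 FPKM in IR livers, and 279, 277 and 280 FPKM in sham livers, while Cmss1 averaged 2.481 FPKM. IR replicate 3 lay with the sham libraries, and the change of 1.14 for IR over sham did not pass (limma adjusted p = 0.0916).

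MSTRG.5384 in Gphn (chr12:78350867-78351173, plus strand) had 74.3, 63.1 and 54.9 FPKM in IPO livers, 243, 209 and 93.9 FPKM in IR livers, and 62.8, 65.3 and 73.6 FPKM in sham livers, all IR values highest. Its change of 1.32 for IR over sham (SE 0.31, limma adjusted p = 0.0272) was lost without sham replicate 1, sham replicate 2, IR replicate 1 or IR replicate 2 (0.0746 to 0.0937). MSTRG.11957 in Camk1d had 7.03, 10.3 and 7.77 FPKM in IPO livers, 67.5, 46.0 and 11.8 FPKM in IR livers, and 9.32, 7.28 and 8.95 FPKM in sham livers, a change of 1.92 (adjusted p = 0.043). MSTRG.18837 in Cdk8 had 2.23, 1.78 and 1.09 FPKM in IPO livers, 15.6, 9.52 and 2.69 FPKM in IR livers, and 1.91, 1.80 and 1.73 FPKM in sham livers, a change of 1.79 (adjusted p = 0.0463). The Camk1d and Cdk8 calls held without IR replicate 3 and were lost without any other library (adjusted p up to 0.133 and 0.126). The differences of the Gphn, Camk1d and Cdk8 loci from their hosts were not called for IR over sham (limma adjusted p = 0.2319, 0.2455 and 0.1982).

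Peak1, a cytoskeletal kinase gene, held MSTRG.24359, an intron locus of 396 bases (chr9:56223568-56223963, minus strand) over an annotated miRNA gene, Gm24270. The locus had 33.5, 28.9 and 16.6 FPKM in IPO livers, 103, 107 and 38.5 FPKM in IR livers, and 32.2, 36.7 and 34.9 FPKM in sham livers. Peak1 had 3.23, 5.89 and 3.66 FPKM in IPO livers, 1.67, 1.88 and 2.38 FPKM in IR livers, and 2.22, 1.72 and 1.47 FPKM in sham livers. The locus was lower in every IPO than in every IR library and the gene higher. For IPO over IR they changed by -1.55 (limma adjusted p = 0.0232) and 0.91 (adjusted p = 0.0195). The difference between locus and gene, -2.463, was not called when tested itself (limma adjusted p = 0.0824). The call of the locus was lost without IR replicate 1, IR replicate 2, IPO replicate 2 or IPO replicate 3 (0.0522 to 0.0781).

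**Figure D5:**
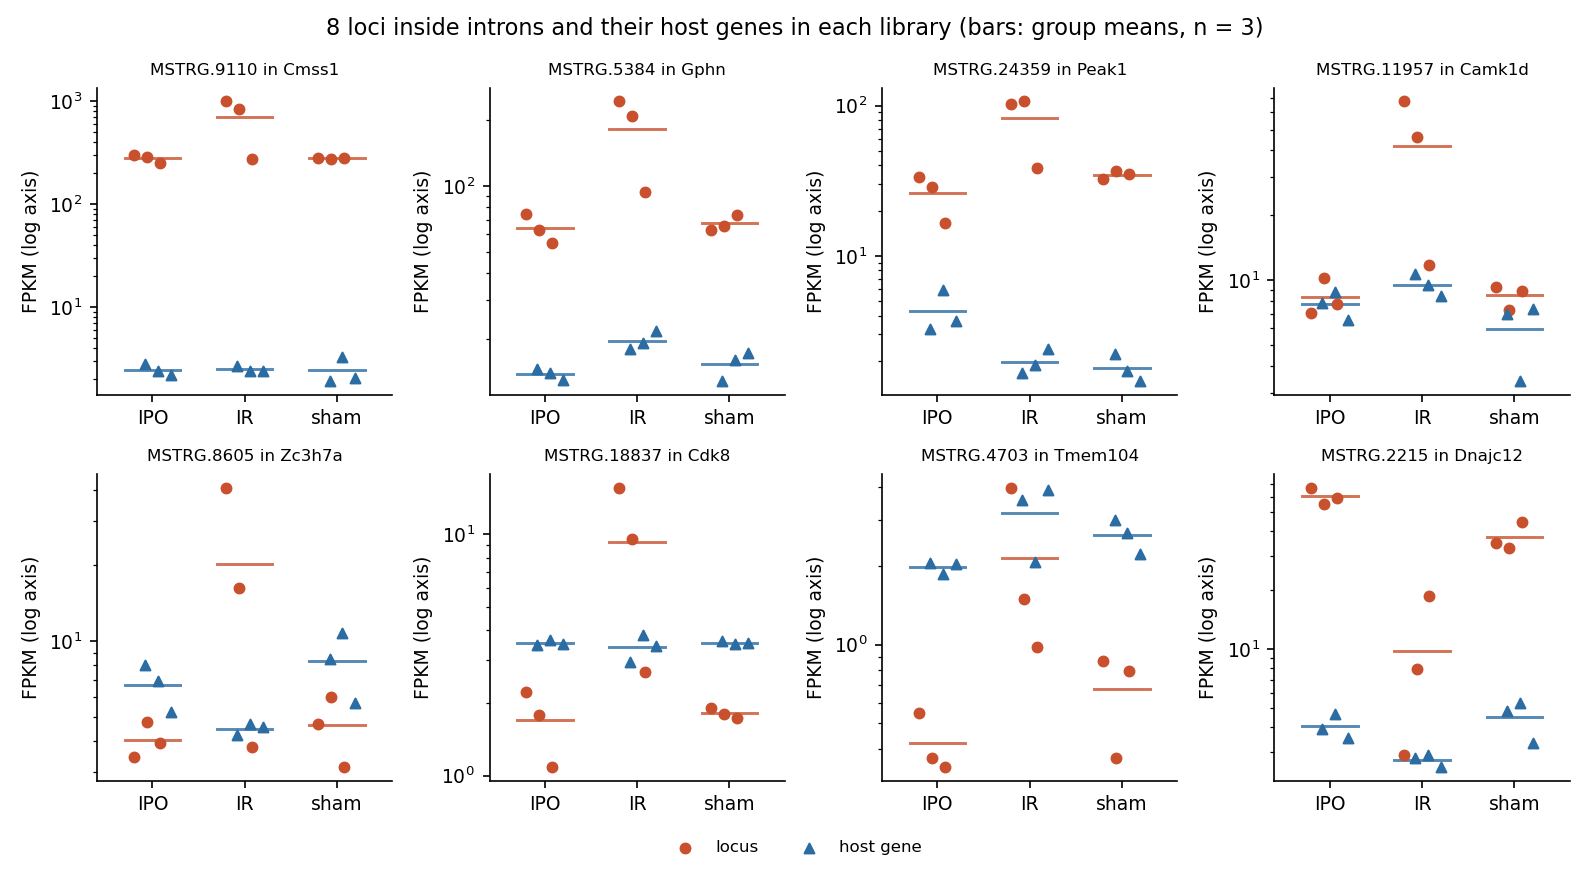
FPKM on log axes of 8 intron loci (circles) and their hosts (triangles) in each library of IPO, IR and sham livers, with bars at group means (n = 3). In the first 7 panels IR replicates 1 and 2 are the highest libraries of the locus, and in the Dnajc12 panel the IR circles are the lowest.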

How the data were processed

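Liver RNA of 9 libraries was measured as FPKM, which the authors computed and deposited in a table of annotated genes and a table of MSTRG loci. The genome was mm10, per the submitters' processing notes. Not stated in these sources are the aligner, the assembler and how fragments shared by a locus and a gene were assigned. Groups came from the labels. All sample columns were matched (0 left over). Depth is unknown, since FPKM is not a count, so no counting interval is given.

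Loci were joined to genes by span and strand, and to GENCODE M21 and RefSeq (GRCm38.p6) annotation. Values were tested as log2(FPKM + 0.5) with limma 3.58.1 (trend) in R 4.3.3, over all 9 libraries, in 3 fits (5779 loci, 9649 genes, and the locus minus gene difference in 5778 pairs), each over features with a mean of at least 1 FPKM and with Benjamini-Hochberg adjustment. Tables were handled in pandas 2.3.3 under Python 3.11.15. On simulated data for IR over sham, the locus fit recovered 60% of 100 loci changed 2-fold and 95% of 100 changed 4-fold, with 7.19% of calls false. For the locus minus gene difference these were 57%, 82% and 7.95%. The simulated noise was drawn independently for each feature, so shifts shared by many loci of a library were not covered.

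The members, gene lists and tests were chosen with earlier results of these data known. Named loci were, in each comparison, the 5 largest rises and falls among called loci and the 5 largest called differences from the host in each direction, the 10 highest loci, the 3 on each side of the threshold, and members of the host lists. Loci named for their shape, for lying in an intron or for a library pattern were chosen after their values were seen. Alternatives covered the pseudocount, filter, scaling, design, definition of the host and each library left out.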

Additional observations from a re-analysis of the deposited data

How the results depend on the processing

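Of 198 single changes followed, 77 kept their call under every alternative and 121 lost it under at least 1; 2 reversed, the difference of MSTRG.5631 from its host when the host was Serpina3k (-0.201 for IR over sham and 0.1862 for IPO over IR). Replicate numbers did not pair the libraries (correlations of same-numbered libraries -0.162 to 0.0611). With the replicate block, calls for IR over sham were 285 loci, 345 hosts and 5 differences from the host, for IPO over IR 12 differences, and for IPO over sham 0 loci, 1 host and 0 differences. Fitted on only the groups compared, they were 200 loci, 195 hosts and 3 differences for IR over sham, and 0 loci, 5 hosts and 0 differences for IPO over sham. With the number in the labels' descriptions as a term, IR over sham gave 120 loci, 100 hosts, 47 differences and a correlation of 0.921; IPO cannot be told apart from its number. A filter at 5 FPKM gave 14 differences for IR over sham and correlations of 0.952, 0.961 and 0.908 for IR over sham, IPO over IR and IPO over sham. Quantile normalization gave 14 differences for IR over sham and 13 loci for IPO over sham, with median changes of 0.0417, -0.0495 and -0.00824 in the 3 comparisons, and median-of-ratios scaling gave medians of 0.0214 and 0.00311 for IR over sham and IPO over sham. With no filter, IPO over sham gave 0 differences, and with only loci inside the host IPO over IR gave 17. Leaving out each library in turn gave 157 to 583 loci, 169 to 641 hosts, 8 to 51 differences and correlations of 0.921 to 0.936 for IR over sham. For IPO over IR these ranged 433 to 921, 548 to 1035, 4 to 40 and 0.931 to 0.942, and for IPO over sham 0 to 3, 0 to 14, 0 to 10 and 0.876 to 0.897. The causes of these shifts were not tested; fits on fewer libraries have fewer residual degrees of freedom.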
